A study of Homo sapiens with 16 samples.

Results

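Liver X receptors (LXRs) are nuclear receptors that sense oxysterols, the oxidised forms of cholesterol, and switch on genes that move sterol out of the cell. The genes described here are the 2 receptors, NR1H3 (LXRα) and NR1H2 (LXRβ), and 5 genes that LXRs are known to induce, ABCA1, ABCG1, MYLIP, LPCAT3 and SMPDL3A. They were taken by name, as the counterpart of sterol synthesis, from the gene table of each experiment. All 7 were listed in both tables, which hold 13559 genes (untreated cells) and 14024 genes (inhibitors).

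The cells were LN229, an established human glioblastoma line that grows as an adherent culture, and the study's methods say that the line was not authenticated there. In the first experiment untreated cells were kept in regular culture, which is DMEM with fetal bovine serum in air, or in the ischemic condition, which combines low glucose, low glutamine, low serum and hypoxia. In the second experiment cells in each of these cultures received the solvent DMSO or 1 of 2 kinase inhibitors, VX745 against p38α or MK25 against MK2, a kinase that p38 activates. No gene was deleted or introduced in any group, the labels give neither the dose nor the time of treatment, and all 6 groups of the second experiment received DMSO or a compound. Each of the 8 groups held 2 libraries of total RNA, 16 in all, and the labels do not say whether these came from separate cultures, so the p-values measure the spread between libraries, which may be technical.

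Cells hold their free cholesterol within narrow limits by setting synthesis and uptake, which SREBP2 drives, against export, which LXRs drive. When oxysterols rise, LXRs paired with retinoid X receptors (RXRs) induce the transporters ABCA1 and ABCG1, and they induce MYLIP (also called IDOL), a ubiquitin ligase that limits lipoprotein uptake. Glioblastoma cells are known to take up much of their cholesterol from outside and to be sensitive to LXR agonists.

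Between 20122017 and 37562668 reads per library lay on the listed genes, and all 7 genes stood above the floor of 3 reads in all 16 libraries, with 14 reads as the smallest number (ABCG1 in regular untreated library 1). The 10 genes with most reads took 5.66 to 6.45% of the reads in ischemic libraries and 4.23 to 4.65% in regular ones, and the part of this difference in the results below was not tested. All 6 genes of a hypoxia list were higher in the ischemic condition in all 4 comparisons of culture. Of all genes, 66.6 to 70.4% passed an adjusted p of 0.05 by limma in these comparisons, in either direction. CA9, a carbonic anhydrase of the list, rose by 9.45 ± 0.15 (SE) on the log2 scale in untreated cells. Of 8 glioma and neural markers all were listed, with VIM at log2 values of 11.08 to 12.77 and GFAP, the astrocyte filament gene, much lower at -0.36 to 1.06 (21 to 55 reads). Of 7 macrophage and microglia markers, cell types in which LXRs are best known, PTPRC, CD14, CD163, AIF1 and TYROBP had no row in the tables used here. CSF1R had 12 to 44 reads in the second experiment and ITGAM 4 to 119 reads over both.

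Values below are log2 normalized CPM, read counts scaled to library size, as deposited, given for both libraries of a group. The 2 experiments were normalized separately, so levels were compared only within each. A difference was called at an adjusted p under 0.05, by limma's moderated test with Benjamini-Hochberg adjustment over all genes of the table, and is given as a log2 fold change ± SE with n = 2 libraries per group. In bulk RNA, fewer cells of a kind and less RNA per cell cannot be told apart.

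**Figure D1:**
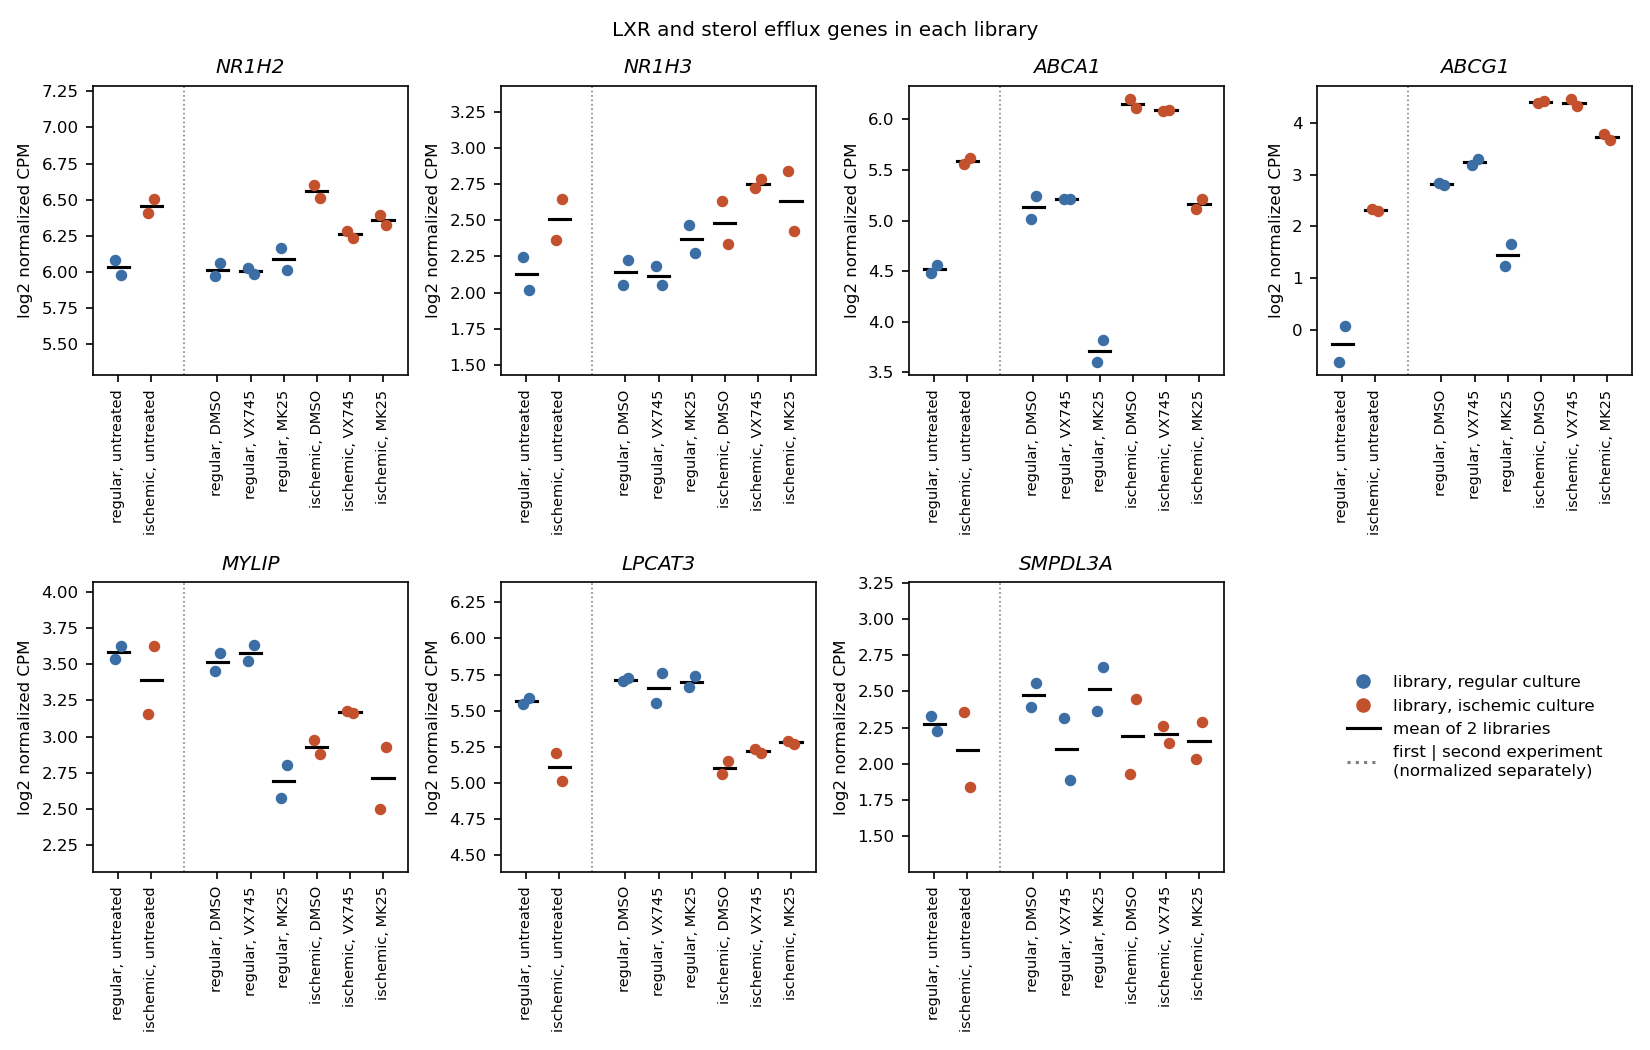
Log2 normalized CPM of the 7 genes (vertical axis, its range set for each gene) in the 16 libraries (points, blue for regular and red for ischemic culture), with the mean of the 2 libraries of each group as a bar and a dotted line between the separately normalized experiments. ABCA1 and ABCG1 stood higher in ischemic than in regular culture under each treatment and lowest, within the second experiment, in regular culture with MK25 (3.60 and 3.82 for ABCA1, 1.24 and 1.67 for ABCG1).

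Both receptors were expressed, NR1H2 well above NR1H3. NR1H2 (Entrez 7376, chr19:50376457-50383388, plus strand, RefSeq annotation of GRCh38.p14) encodes LXRβ, the form found in most tissues. In untreated cells it read 6.08 and 5.98 in regular and 6.41 and 6.51 in ischemic culture. With DMSO it read 5.97 and 6.06 in regular and 6.60 and 6.51 in ischemic culture. Both ischemic libraries lay above both regular ones in each experiment, and the rise was 0.43 ± 0.075 (adjusted p = 0.000253) untreated and 0.54 ± 0.064 (adjusted p = 7.98e-07) with DMSO. Under VX745 the values were 6.02 and 5.98 in regular and 6.29 and 6.24 in ischemic culture, and under MK25 they were 6.16 and 6.01, and 6.40 and 6.33. The 3 regular groups overlapped one another, while both ischemic inhibitor groups lay below ischemic DMSO.

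NR1H3 (Entrez 10062, chr11:47248300-47269033, plus strand) encodes LXRα, the form known for liver, fat and macrophages. It read 2.25 and 2.01 in regular and 2.37 and 2.65 in ischemic culture without treatment. In the second experiment regular culture gave 2.05 and 2.23 with DMSO, 2.18 and 2.05 with VX745, and 2.47 and 2.27 with MK25, and ischemic culture gave 2.64 and 2.33, 2.72 and 2.79, and 2.84 and 2.43. The ischemic libraries lay above the regular ones under each treatment but MK25, where the groups overlapped. The difference was called under VX745 (0.64 ± 0.16, adjusted p = 0.00208), and was 0.38 ± 0.17 untreated (adjusted p = 0.0652), 0.35 ± 0.16 with DMSO (adjusted p = 0.0649) and 0.26 ± 0.16 with MK25 (adjusted p = 0.157). The untreated difference was called without ischemic library 1 (0.52, adjusted p = 0.00963), that with DMSO without ischemic library 2 (0.50, adjusted p = 0.0316) and after quantile normalization (adjusted p = 0.0460), and that with MK25 without ischemic library 2 (0.47, adjusted p = 0.0360). Neither inhibitor moved NR1H3 past the threshold in either culture. Of the exon bases of NR1H3, 4.17% overlap ACP2 on the other strand.

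ABCA1 (Entrez 19, chr9:104781006-104928155, minus strand) encodes the transporter that loads cholesterol and phospholipid onto lipid-poor apolipoprotein A-I, the first step of high-density lipoprotein formation. The 250 bases before its start are shown because LXR control of this promoter is well known and because ABCA1 was called in every comparison of culture and under MK25 in both cultures. They lie at chr9:104928156-104928405 on the minus strand of GRCh38.p14 (RefSeq). Capitals mark a match to the E-box CACGTG and, nearer the start, a match to DR4, the direct repeat that LXR and RXR bind.

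ABCA1: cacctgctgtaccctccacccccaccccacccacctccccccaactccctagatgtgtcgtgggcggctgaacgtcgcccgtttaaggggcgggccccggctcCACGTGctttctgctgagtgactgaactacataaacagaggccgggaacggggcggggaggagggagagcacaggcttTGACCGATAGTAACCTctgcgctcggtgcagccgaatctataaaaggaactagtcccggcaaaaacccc

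DR4 was searched on both strands as AGGTCA, any 4 bases, AGGTCA, with up to 2 mismatches. The ABCA1 match lies 69 to 54 bases before the start, on the opposite strand, where it reads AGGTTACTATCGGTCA with 2 mismatches. Of 34943 RefSeq promoter windows of this length, 709 (2.03%) held a DR4 match at this tolerance and 5 (0.0143%) an exact one. The E-box lies 147 to 142 bases before the start and was found in 6.32% of the windows, and it overlaps the shorter hypoxia response core ACGTG, found in 18.5%. The windows of MYLIP, NR1H2, NR1H3 (4 starts) and LPCAT3 held no match to DR4, the E-box or that core, which says only that these letters are not there. ABCG1 and SMPDL3A had no window in the RefSeq table used.

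Transcripts of ABCA1 rose in the ischemic condition and fell under MK25. The untreated libraries read 4.48 and 4.56 in regular and 5.56 and 5.62 in ischemic culture, a rise of 1.07 ± 0.084 (adjusted p = 2.41e-07), or 2.10-fold. With DMSO the values were 5.02 and 5.25 in regular and 6.20 and 6.11 in ischemic culture, a rise of 1.02 ± 0.084 (adjusted p = 7.83e-09). With VX745 they were 5.22 and 5.22, within the range of DMSO, and 6.09 and 6.09, just below it. MK25 gave 3.60 and 3.82 in regular and 5.11 and 5.21 in ischemic culture, below every DMSO and VX745 library of the same culture. The fall against DMSO was 2.67-fold in regular culture (log2 -1.42 ± 0.084, adjusted p = 2.19e-09) and 1.99-fold in ischemic culture (-0.99 ± 0.084, adjusted p = 1.34e-07). From the lowest mean the groups ran regular MK25, regular DMSO, ischemic MK25, regular VX745, ischemic VX745 and ischemic DMSO, and ischemic MK25 and regular VX745 both lay within the range of regular DMSO.

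ABCG1 (Entrez 9619, chr21:42199689-42297244, plus strand) encodes a half-transporter that passes cholesterol to mature high-density lipoprotein. It read -0.62 and 0.06 in regular and 2.35 and 2.29 in ischemic culture without treatment (14, 27, 138 and 102 reads). This rise of 2.60 ± 0.26 (adjusted p = 2.20e-06) ranked 252nd of 13559 genes from the largest rise, and it was 1.75 on the log2(CPM + 1) scale. With DMSO the levels were 2.85 and 2.80 in regular and 4.39 and 4.43 in ischemic culture, and the rise was 1.59 ± 0.13 (adjusted p = 4.94e-09). VX745 gave 3.18 and 3.31, and 4.46 and 4.33. In regular culture both VX745 libraries lay above both DMSO libraries, by 0.42 ± 0.13 on average, which did not pass the threshold (adjusted p = 0.139). MK25 gave 1.24 and 1.67 in regular and 3.80 and 3.67 in ischemic culture, falls of 1.37 ± 0.13 (adjusted p = 8.76e-07) and 0.67 ± 0.13 (adjusted p = 0.000436) on the log2 scale. The order of the means was regular MK25, regular DMSO, regular VX745, ischemic MK25, ischemic VX745 and ischemic DMSO, and ischemic DMSO and ischemic VX745 alone overlapped.

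MYLIP (Entrez 29116, chr6:16129086-16163887, plus strand) encodes IDOL, the LXR-induced ligase named above. Unlike ABCA1 and ABCG1 it did not rise in the ischemic condition. The 250 bases before its start (chr6:16128836-16129085, plus strand, GRCh38.p14) are shown for comparison with ABCA1, with no capitals because no searched motif was found.

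MYLIP: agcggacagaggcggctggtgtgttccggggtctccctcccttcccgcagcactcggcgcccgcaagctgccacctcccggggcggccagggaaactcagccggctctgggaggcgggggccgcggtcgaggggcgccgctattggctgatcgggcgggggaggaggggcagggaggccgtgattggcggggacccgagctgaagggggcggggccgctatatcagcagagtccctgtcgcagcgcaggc

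Untreated libraries read 3.54 and 3.63 in regular and 3.16 and 3.63 in ischemic culture and overlapped (-0.19 ± 0.15, adjusted p = 0.272). Without ischemic library 2 this difference was -0.43, with an adjusted p of 0.00480. With DMSO the values were 3.45 and 3.58 in regular and 2.98 and 2.88 in ischemic culture, a fall of 0.59 ± 0.135 on the log2 scale (adjusted p = 0.000888). VX745 gave 3.52 and 3.63, and 3.18 and 3.16, a difference between cultures of -0.41 ± 0.135 (adjusted p = 0.0137) whose call was lost without either ischemic library (adjusted p = 0.0507 and 0.0585) and without regular library 2 (adjusted p = 0.0883). MK25 gave 2.58 and 2.80 in regular culture, below both DMSO libraries (-0.83 ± 0.135, adjusted p = 0.000571), and 2.50 and 2.93 in ischemic culture, overlapping DMSO (-0.21 ± 0.135, adjusted p = 0.218). That last difference was called without ischemic MK25 library 2 (-0.43, adjusted p = 0.0327) and after quantile normalization (-0.38, adjusted p = 0.0381).

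LPCAT3 (Entrez 10162, chr12:6976185-7018476, minus strand) encodes the enzyme that puts polyunsaturated fatty acids into membrane phospholipids. It fell in the ischemic condition under each treatment, from 5.55 and 5.59 to 5.21 and 5.01 untreated (-0.46 ± 0.087, adjusted p = 0.000485) and from 5.71 and 5.73 to 5.06 and 5.15 with DMSO (-0.61 ± 0.072, adjusted p = 7.43e-07). VX745 gave 5.55 and 5.76 in regular and 5.24 and 5.20 in ischemic culture, and MK25 5.66 and 5.74, and 5.29 and 5.27. In each experiment all regular libraries lay above all ischemic ones, and neither inhibitor passed the threshold against DMSO. Of 2235 bases of its canonical transcript, 1506 (67.4%) overlap exons of EMG1, a ribosome biogenesis gene on the other strand, and the library kit does not mark strand, so reads of the shared stretch cannot be told apart. EMG1 itself changed by -0.18 ± 0.069 untreated (adjusted p = 0.0342) and by -0.057 ± 0.070 with DMSO (adjusted p = 0.483) between cultures, and by -0.47 ± 0.070 with VX745 (adjusted p = 1.40e-05) and -0.58 ± 0.070 with MK25 (adjusted p = 1.14e-06), where LPCAT3 changed by -0.44 ± 0.072 and -0.42 ± 0.072. In ischemic culture EMG1 also fell against DMSO, by 0.32 ± 0.070 on the log2 scale under VX745 (adjusted p = 0.00293) and by 0.52 ± 0.070 under MK25 (adjusted p = 1.87e-05). The part of EMG1 in the values of LPCAT3 was not tested.

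SMPDL3A (Entrez 10924, chr6:122789258-122809720, plus strand) encodes a secreted phosphodiesterase of the acid sphingomyelinase family that LXRs induce in macrophages. Its values were 2.33 and 2.23 in regular and 2.36 and 1.84 in ischemic culture without treatment. With DMSO, VX745 and MK25 they were 2.39 and 2.56, 2.31 and 1.89, and 2.37 and 2.67 in regular culture, and 1.93 and 2.45, 2.26 and 2.14, and 2.03 and 2.29 in ischemic culture. In the second experiment the lowest library, at 1.89, and the highest, at 2.67, were both from regular culture, and both regular VX745 libraries lay below both DMSO libraries. SMPDL3A passed the threshold in none of the 12 comparisons with all libraries in. The smallest adjusted p was 0.103, for ischemic against regular culture with MK25 (-0.36 ± 0.19), and it was 0.0386 after quantile normalization. Without ischemic library 1 the untreated difference was -0.44 (adjusted p = 0.0381), and without ischemic DMSO library 2 that with DMSO was -0.55 (adjusted p = 0.0315). The 95% interval of the change with DMSO ran from -0.69 to 0.11.

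Per length, as CPM per kilobase of the canonical transcript (mean ± SD, n = 2), NR1H2 and LPCAT3 headed the order with DMSO in both cultures. In regular culture with DMSO NR1H2 stood at 26.8 ± 1.15, LPCAT3 at 23.5 ± 0.24, MYLIP at 3.71 ± 0.24, ABCA1 at 3.37 ± 0.38, SMPDL3A at 3.12 ± 0.26, ABCG1 at 2.35 ± 0.057 and NR1H3 at 2.34 ± 0.21. Neighbours among MYLIP, ABCA1 and SMPDL3A differed by less than their summed SDs, as did ABCG1 and NR1H3. In ischemic culture with DMSO the order was NR1H2 at 39.0 ± 1.68, LPCAT3 at 15.4 ± 0.67, ABCG1 at 7.11 ± 0.16, ABCA1 at 6.84 ± 0.31, NR1H3 at 3.0 ± 0.45, SMPDL3A at 2.59 ± 0.66 and MYLIP at 2.46 ± 0.12. ABCG1 and ABCA1 differed by less than their summed SDs there, and so did neighbours among NR1H3, SMPDL3A and MYLIP. These levels rest on the GENCODE v44 transcript of each gene. That of LPCAT3 also depends on how reads of the stretch shared with EMG1 were counted, which the sources used here do not give.

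The comparison of cultures asks which genes the ischemic condition changes. Of the 7 genes, 4 were called in untreated cells, beside 70.4% of all 13559 genes, and 5 with DMSO, beside 69.6% of 14024. With VX745 6 were called (background 66.6%) and with MK25 4 (background 67.2%). Against such a background the counts are no result about the 7 genes as a group. With a fold minimum of 2 beside the adjusted p, 2, 2, 1 and 2 of them were called, ABCG1 each time and ABCA1 in all but VX745, beside 20.4, 17.1, 14.5 and 13.9% of all genes. ABCA1, ABCG1 and NR1H2 were higher and LPCAT3 was lower in the ischemic condition in all 4 comparisons. With VX745 the ischemic rise was 0.87 ± 0.084 for ABCA1 and 1.15 ± 0.13 for ABCG1, and with MK25 it was 1.45 ± 0.084 and 2.28 ± 0.13. The median change of the 7 genes was 0.38 untreated and 0.35 with DMSO, against -0.0090 and -0.0068 over all genes.

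**Figure D2:**
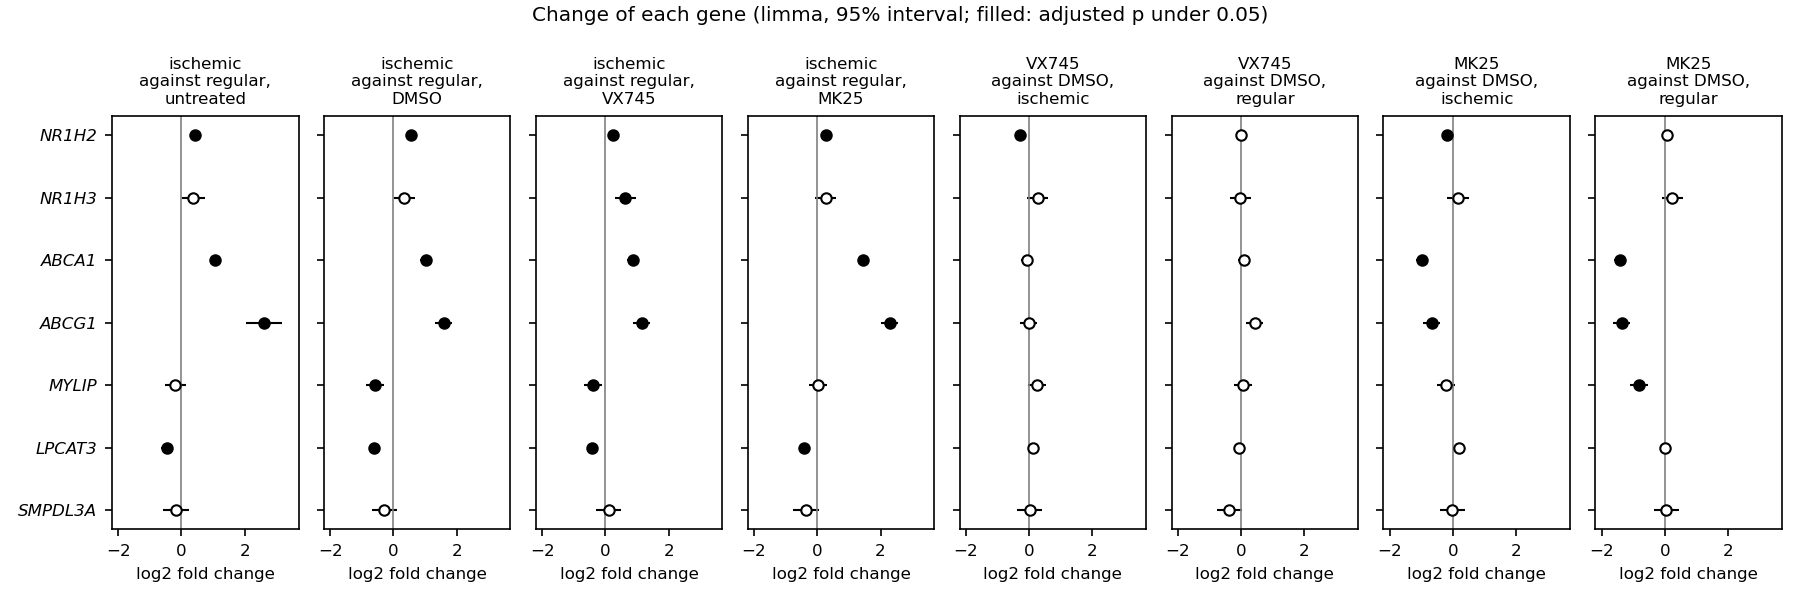
Log2 fold change of each gene (horizontal axis) in 8 comparisons, with 95% intervals from limma; filled circles passed an adjusted p under 0.05. ABCA1 and ABCG1 lie to the right of 0 in all 4 comparisons of culture, near 0 under VX745 in ischemic culture, and to the left of 0 under MK25 in both cultures.

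The inhibitor comparisons ask which genes change with VX745 or MK25, and within a culture both share the same DMSO libraries. Whether a change came through the kinase that the compound is aimed at was not tested. MK25 in regular culture called 3 of the 7 genes, all lower, beside 12.2% of all genes in either direction and 5.21% lower. ABCA1 was the 25th, ABCG1 the 27th and MYLIP the 108th of 14024 genes from the largest fall. MK25 in ischemic culture called 3, ABCA1, ABCG1 and NR1H2, all lower, beside 41.7% of all genes in either direction and 22% lower. ABCA1 ranked 112th and ABCG1 331st from the largest fall there, and NR1H2 fell by 0.20 ± 0.064 on the log2 scale (adjusted p = 0.0214). The call of NR1H2 was lost without ischemic DMSO library 1 (adjusted p = 0.168) and without ischemic MK25 library 2 (adjusted p = 0.131), and its adjusted p was 0.146 after quantile normalization and 0.0550 with no variance trend.

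VX745 called none of the 7 genes in regular culture by limma, where ABCG1 alone was under an unadjusted p of 0.05 and voom on the recovered reads also called 0; the background was 0.335%. In ischemic culture it called 1, NR1H2 (-0.30 ± 0.064, adjusted p = 0.00246), beside 28.9% of all genes, and none with a fold of at least 1.5 (background 5.26%). The intervals of the VX745 change in ischemic culture were -0.24 to 0.11 for ABCA1 and -0.28 to 0.25 for ABCG1.

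MK25 was also set directly against VX745. No DMSO library enters the fold change, but the SE and p-values use the spread within all groups of the second experiment, DMSO included. The doses are not in the labels, so the compounds are compared as they were used. The study's methods list a concentration for each compound, higher for MK25, but do not tie it to these libraries. In regular culture 3 of the 7 genes were called, all lower with MK25, beside 5.39% of all genes in either direction and 1.43% lower. ABCG1 differed by -1.80 ± 0.13 (adjusted p = 2.23e-08), ABCA1 by -1.50 ± 0.084 (adjusted p = 9.42e-10) and MYLIP by -0.89 ± 0.135 (adjusted p = 0.000399). ABCG1 ranked 10th and ABCA1 13th of 14024 genes from the largest fall. In ischemic culture the same 3 were called, beside 18.4% of all genes and 10.2% lower, with ABCA1 at -0.93 ± 0.084 (adjusted p = 4.68e-07), ABCG1 at -0.66 ± 0.13 (adjusted p = 0.00122) and MYLIP at -0.46 ± 0.135 (adjusted p = 0.0245). The call of MYLIP there was lost with no variance trend (adjusted p = 0.0626). It was also lost without ischemic MK25 library 1 (log2 fold change -0.24) and without either ischemic VX745 library (-0.45 and -0.46).

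Whether an inhibitor acted differently in the 2 cultures was tested by the interaction, the change in ischemic culture less the change in regular culture. For MK25 4 of the 7 genes were called, beside 24.4% of all genes, and 2 with a fold of at least 1.5 (background 7.94%). The falls of ABCA1, ABCG1 and MYLIP were smaller in ischemic culture, by 0.43 ± 0.12 (adjusted p = 0.0150), 0.70 ± 0.18 (adjusted p = 0.00890) and 0.61 ± 0.19 (adjusted p = 0.0262), and the change of NR1H2 was more negative there (-0.27 ± 0.091, adjusted p = 0.0397). The ABCA1 interaction lost its call without ischemic DMSO library 2, ischemic MK25 library 2, regular DMSO library 2 or regular MK25 library 1 (adjusted p of 0.0598 to 0.0817), MYLIP without any of the same 4 (0.0767 to 0.146) and NR1H2 without any of 5 libraries (0.0516 to 0.169), whereas ABCG1 kept its call without each library in turn. For VX745 1 was called, NR1H2 (-0.29 ± 0.091, adjusted p = 0.0494), beside 11.8% of all genes (3.09% with a fold of at least 1.5, where none of the 7 was left), and that call was lost without each of the 8 libraries in turn (adjusted p of 0.0590 to 0.185).

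Genes that make cholesterol moved the other way under MK25. In regular culture 21 of 22 measured genes of sterol synthesis and its control rose and none fell, with a median change of 1.33 against 0.0024 over all genes, of which 12.2% were called. INSIG1, a brake on SREBP processing and itself an SREBP target, rose by 3.56 ± 0.074, the synthase HMGCS1 by 2.66 ± 0.068, the oxidase MSMO1 by 2.50 ± 0.10 and the epoxidase SQLE by 1.94 ± 0.087. In ischemic culture 19 of 22 rose and none fell (median 0.86, background 41.7%), INSIG1 by 1.79 ± 0.074 and SREBF2, the gene of SREBP2 itself, by 1.40 ± 0.055. With VX745 the median of the 22 was -0.0054 in regular culture. There 5 were under an unadjusted p of 0.05, beside 2075 of all 14024 genes, and none after adjustment (background 0.335%). In ischemic culture with VX745 1 rose and 4 fell (background 28.9%), and INSIG1 fell by 0.89 ± 0.074 on the log2 scale. The ischemic condition, in which ABCA1 and ABCG1 rose, called 6 of the 22 higher and 9 lower with DMSO (median -0.11), beside 69.6% of all genes called, with INSIG1 up by 2.65 ± 0.074. It called 5 higher and 13 lower untreated (median -0.34, background 70.4%), 4 and 13 with VX745 (median -0.29, background 66.6%) and 3 and 16 with MK25 (median -0.81, background 67.2%).

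**Figure D3:**
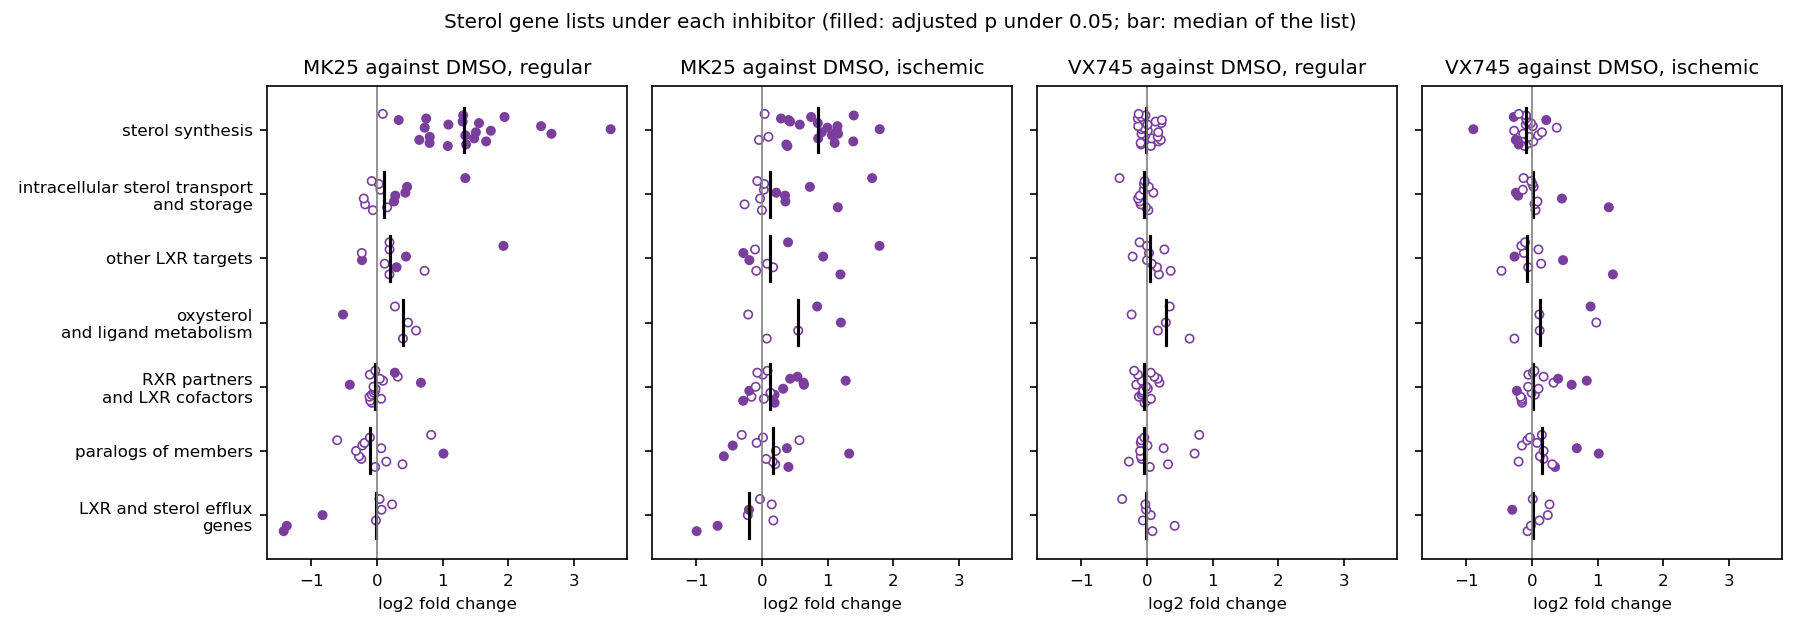
Log2 fold change (horizontal axis) of each gene of 6 sterol-related lists and of the LXR and sterol efflux genes under each inhibitor; filled circles passed an adjusted p under 0.05 and the black bar is the median of the list. Under MK25 in regular culture sterol synthesis genes lie right of 0 (median 1.33) while ABCA1, ABCG1 and MYLIP lie left of it, at -1.42, -1.37 and -0.83.

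Of the lipoprotein receptors that IDOL is known to degrade, VLDLR and LRP8 are described here as transcripts, which IDOL does not act on. VLDLR, the very low density lipoprotein receptor, rose by 3.29 ± 0.062 in the ischemic condition with DMSO and by 1.31 ± 0.062 under MK25 in regular culture, and under MK25 in ischemic culture it was at -0.091 ± 0.062. LRP8, the apolipoprotein E receptor 2, rose by 0.32 ± 0.059 and 0.46 ± 0.059 under MK25 in regular and ischemic culture and fell by 0.88 ± 0.059 on the log2 scale in the ischemic condition with DMSO.

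**Figure D4:**
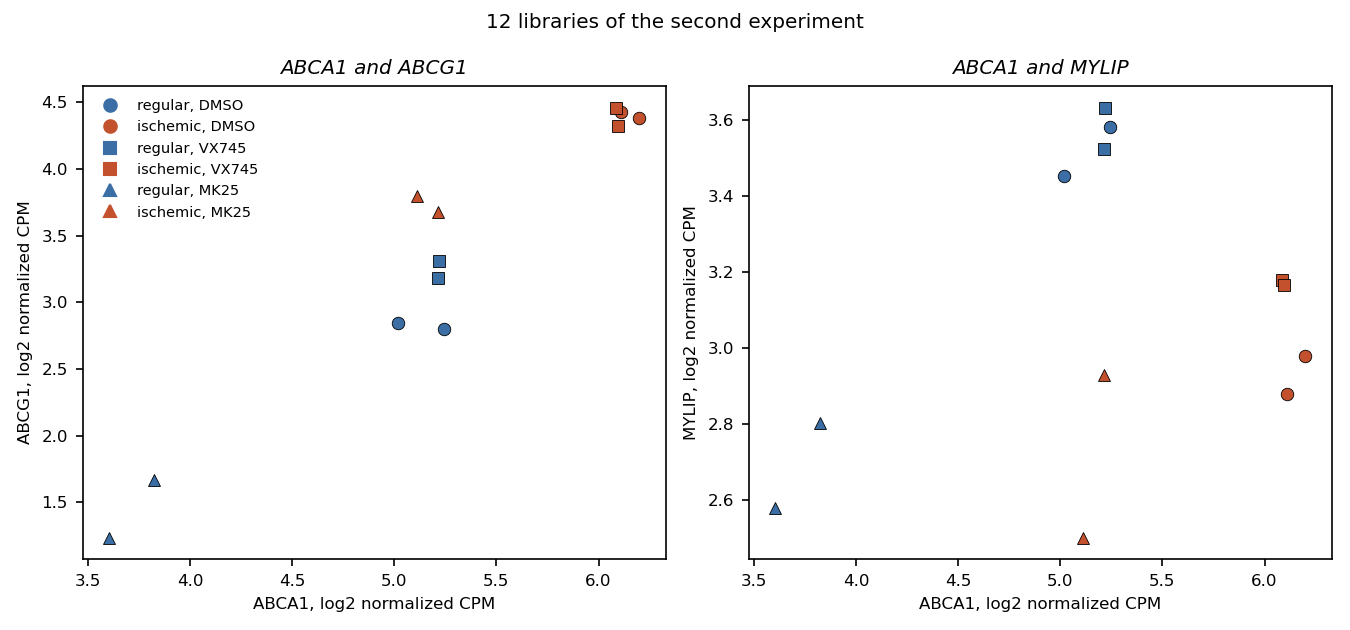
Log2 normalized CPM of ABCA1 (horizontal axes) against ABCG1 (left) and MYLIP (right) in the 12 libraries of the second experiment, coloured by culture with 1 marker shape per treatment. ABCA1 and ABCG1 rise together over the 12 libraries (Pearson r = 0.963), whereas for ABCA1 and MYLIP r is 0.298, with the regular MK25 libraries low in both genes.

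Other genes known as LXR targets were measured in part. Of 17 on the list, 10 were in the second table, and APOC2, APOC4, ABCG5, ABCG8, CETP, MERTK and MLXIPL were not analysed here. In the ischemic condition with DMSO 6 of the 10 rose and 1 fell (median 0.33 against -0.0068 over all genes), and 69.6% of all genes were called, a share close to that of the list. SREBF1, the gene of SREBP1, rose by 1.32 ± 0.068, the phospholipid transfer protein gene PLTP by 1.15 ± 0.097 and the desaturase SCD by 1.01 ± 0.076, while the fatty acid synthase gene FASN fell by 0.86 ± 0.085 on the log2 scale. Under MK25 in regular culture 3 rose and 1 fell (median 0.19, background 12.2%), SCD by 1.93 ± 0.076, FASN by 0.44 ± 0.085 and APOD by 0.30 ± 0.084. SCD and FASN are also SREBP targets. In ischemic culture MK25 called 4 higher, led by SCD (1.79 ± 0.076) and ABCG4 (1.20), and 2 lower (background 41.7%). ABCG4 rests on few reads, 8 to 12 with DMSO, 29 to 39 with MK25 and 26 to 36 with VX745 in ischemic culture. Its mean log2 values there were -1.19, 0.0061 and 0.044, so it stood as high with VX745 as with MK25. APOE, the apolipoprotein that LXRs induce in astrocytes and macrophages, passed the threshold in no comparison (0.28 ± 0.19 in the ischemic condition with DMSO, adjusted p = 0.195).

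Enzymes that make or clear LXR ligands were few. CH25H, which makes 25-hydroxycholesterol, had 5 and 13 reads in regular and 339 and 410 in ischemic culture with DMSO, a rise of 5.26 ± 0.24 (adjusted p = 2.46e-12), and 2 to 7 reads against 247 to 379 in untreated cells. CYP7B1, which hydroxylates oxysterols for their clearance, fell by 1.00 ± 0.12 on the log2 scale in the ischemic condition with DMSO and by 0.52 ± 0.12 under MK25 in regular culture. Under MK25 CH25H was at 0.40 ± 0.24 in regular culture (adjusted p = 0.296) and 0.075 ± 0.24 in ischemic culture (adjusted p = 0.828). Of the 9 genes listed, 5 were in the second table, 2 of them called in the ischemic condition with DMSO (background 69.6%), 1 under MK25 in regular culture (12.2%) and 2, both higher, under MK25 in ischemic culture (41.7%). CYP46A1, CYP11A1, SULT2B1 and SULT2A1 were not analysed here.

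Of 12 genes of sterol transport within the cell and of storage, 5 rose and 4 fell in the ischemic condition with DMSO (median 0.17), beside 69.6% of all genes called. GRAMD1A, a carrier of plasma membrane cholesterol, rose by 0.94 ± 0.064, SOAT1, which esterifies cholesterol for storage, fell by 1.10 ± 0.061 on the log2 scale, and NCEH1, which hydrolyses the esters, fell by 1.17 ± 0.074. GRAMD1B, a relative of GRAMD1A, fell by 1.28 ± 0.33. Under MK25 5 rose in regular (background 12.2%) and 6 in ischemic culture (background 41.7%) and none fell. STARD4, a cholesterol carrier and SREBP target, rose by 1.35 ± 0.097 and 1.68 ± 0.097 there, and SCARB1, the high-density lipoprotein receptor, by 0.46 ± 0.059 and 0.73 ± 0.059.

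Of 17 RXR partners and LXR cofactors measured (RXRB was not analysed here), 7 rose and 2 fell in the ischemic condition with DMSO (median 0.063), beside 69.6% of all genes called. RXRA, the main RXR, fell by 0.55 ± 0.062 on the log2 scale and the coactivator PPARGC1B by 2.60 ± 0.215, while the coactivator NCOA3 rose by 0.74 ± 0.061 and GPS2, a corepressor complex subunit, by 0.51 ± 0.070. Under MK25 2 rose and 1 fell in regular culture (background 12.2%) and 8 rose and 2 fell in ischemic culture (background 41.7%). RXRA rose by 0.43 ± 0.062 under MK25 in ischemic culture. VX745 in ischemic culture called 3 higher, RXRA among them (0.40 ± 0.062), and 1 lower, beside 28.9% of all genes.

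The list labelled as paralogs held 13 genes, related to the 7 by sequence or, as LPCAT1 and LPCAT4 to LPCAT3, by activity and name. Of these, 5 rose and 4 fell in the ischemic condition with DMSO (median 0.20), beside 69.6% of all genes called. The transporter gene ABCA3 rose by 1.30 ± 0.19, whereas the lysophospholipid acyltransferase genes LPCAT1 and LPCAT4 fell by 2.75 ± 0.22 and 0.98 ± 0.090 on the log2 scale. Under MK25 in regular culture 1 of the 13 was called, LPCAT1 (1.01 ± 0.22, background 12.2%). In ischemic culture 3 rose and 2 fell under MK25 (background 41.7%), and ABCG2, a drug transporter of the ABCG1 family, fell by 0.58 on the log2 scale.

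Other genes moved with the same libraries. MK25 in regular culture raised all 6 genes of the hypoxia list (background 12.2%), with a median of 1.88 and CA9 at 2.97 ± 0.38. In ischemic culture the median of the 6 was -0.14. There 3 were under an unadjusted p of 0.05, beside 6953 of all 14024 genes, and none after adjustment (background 41.7%). ITGAM, the macrophage integrin gene at low level in these cells, rose by 1.33 ± 0.34 under MK25 in ischemic culture (adjusted p = 0.00512) and by 1.36 ± 0.34 in the ischemic condition with DMSO (adjusted p = 0.00196). CSF1R, the only other macrophage marker measured in the second experiment, passed the threshold in neither comparison (0.41 and -0.16). The part of the hypoxia list or of ITGAM in the changes of the LXR and sterol efflux genes was not tested.

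The genes whose levels followed each of the 7 most closely were found among 12270 genes over the 12 libraries of the second experiment, which share groups, so the Pearson r is a description. ABCA1 and ABCG1 were each other's closest gene (r = 0.963). Next to ABCA1 came PEX5L (0.949) and LOC105371414 (0.946), and next to ABCG1 ARHGAP26 (0.958) and DNAH9 (0.947). MYLIP was followed by TTLL12 (0.907), CCP110 (0.885) and ST8SIA5 (0.869), and its r with ABCA1 was 0.298. NR1H2 was followed by RPL28 (0.980), PRKAG1 (0.977) and POLR2H (0.975), and NR1H3 by MIF4GD (0.933), NKAPP1 (0.929) and YIF1A (0.928). LPCAT3 had RAVER2 (0.987), MLEC (0.987) and PLAGL2 (0.986), and SMPDL3A BIRC2 (0.803), GSK3B (0.801) and EPM2AIP1 (0.794). Between members the lowest r was that of NR1H2 with LPCAT3 (-0.914), which rose and fell in the ischemic condition.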

How the data were processed

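RNA of LN229 cells was made into libraries with the SMART-Seq mRNA HT and Nextera XT kits, which do not mark strand. The authors aligned the reads to GRCh38 with HISAT2, used edgeR, and deposited log2 normalized CPM per gene and library, in 1 table per experiment. These log2 values were used as deposited. Undoing the logarithm gave whole reads for 100% of the values (tolerance 0.02 reads), which gave the depth of each library and the floor of 3 reads. The floor covers counting error only, while limma's intervals rest on the spread between libraries. Symbols came from NCBI Entrez identifiers, of which 99.4% and 99.3% matched.

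Differences came from limma 3.58.1 in R 4.3.3, with 1 mean per group, a variance trend, no replicate block and two-sided p-values adjusted over all genes of a comparison. A count test was not the main test because the values are on a log scale. There were 12 comparisons, as named in the report. On simulated data limma recovered 99% of 100 genes given a log2 change of 1 in the untreated comparison (13559 genes) and 100% with DMSO (14024 genes). It called 4 and 5 unchanged genes. The simulated counts had the same dispersion for all genes and groups. Only a small part of the genes was changed, all averaging at least 1 on the log2 scale. The data differ in both respects, so these shares are not the power in these libraries. Python 3.11.15, numpy 2.4.6, pandas 2.3.3 and matplotlib 3.10.9 were used for the rest.

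The 7 genes and the 10 lists beside them were chosen with earlier results of these data known. From each list, up to 4 called genes of largest change were named, and for each of the 7 genes the 3 most correlated genes among those averaging 1 or more on the log2 scale. APOE, CSF1R, ITGAM, VIM and GFAP, and CH25H, VLDLR and RXRA under MK25, were named after their values were seen, and EMG1 and ACP2 for their overlaps. A few genes of the lists are not reported by name here. Genome positions, transcript lengths and promoter windows came from RefSeq GRCh38.p14 and GENCODE v44.

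The alternatives were a fold minimum of 2 between cultures and 1.5 for inhibitors, a mean of at least 1 CPM, median-centred libraries, quantile normalization, no variance trend, log2(CPM + 1), voom on the recovered reads, the replicate block, only the 2 groups compared, and each library left out in turn.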

Additional observations from a re-analysis of the deposited data

Results flagged for a closer look

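The effect of an inhibitor differed between the cultures, by an interaction term tested with limma over all 14024 genes, for 5 pairs of gene and inhibitor, beside 24.4% of all genes called for MK25 and 11.8% for VX745. Under MK25 the interaction was 0.70 ± 0.18 (SE) for ABCG1 (adjusted p = 0.00890), 0.43 ± 0.12 for ABCA1 (adjusted p = 0.0150), 0.61 ± 0.19 for MYLIP (adjusted p = 0.0262) and -0.27 ± 0.091 for NR1H2 (adjusted p = 0.0397). For VX745 it was -0.29 ± 0.091 for NR1H2 (adjusted p = 0.0494). ABCA1 and ABCG1 fell under MK25 in 2 of 2 libraries in both cultures, and the difference was one of size. The call of NR1H2 for VX745 was lost without each of the 8 libraries in turn (adjusted p of 0.0590 to 0.185), and under MK25 those of ABCA1 (0.0598 to 0.0817), MYLIP (0.0767 to 0.146) and NR1H2 (0.0516 to 0.169) were lost without single libraries. The 4 DMSO libraries enter both interactions, so the values for NR1H2 are not independent of each other.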

How the results depend on the processing

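The calls of ABCA1, ABCG1, NR1H2 and LPCAT3 between cultures, and those of ABCA1 and ABCG1 under MK25 against DMSO, held under each alternative that was run, apart from the fold minimum. Over all values of the 7 genes, 993 kept their side of the threshold, 40 lost it, 10 passed it and 0 changed direction once called. With a fold minimum the number of genes called fell to 2 untreated, 2 with DMSO, 1 with VX745 and 2 with MK25 between cultures, to 0 for VX745 in ischemic culture, and to 0 and 2 for the interactions of VX745 and MK25. The interaction of VX745 called 0 genes with quantile normalization, with no variance trend and by voom, and that of MK25 called 2 with quantile normalization and 1 with no variance trend. Leaving out 1 library gave 0 calls in each case for VX745 and 1 to 4 for MK25. With the replicate block, a fit on numbers that only name the libraries (correlations of deviations -0.126 to 0.263), the counts of calls were the same in all 12 comparisons, for instance 3 under MK25 in regular culture. Over all genes, VX745 in regular culture called 47 genes (25 higher), and 6 with no variance trend, 13 by voom and 9 with only the 2 groups compared. MK25 in regular culture called 1712, and 879 with no variance trend and 754 with only the 2 groups compared. MK25 against VX745 in regular culture called 756, and 418 and 493 under the same settings, and the interaction of VX745 1653, and 1026 with quantile normalization and 594 with no variance trend. The cause of these shifts was not tested. With 2 libraries per group, small changes could not be resolved: the 95% interval of SMPDL3A between cultures with DMSO ran from -0.69 to 0.11.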
